A study of Homo sapiens with 8 samples.

Results

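Linker histone H1 genes were followed in human HEL92.1.7 cells, an erythroleukaemia line, and in HEL OTX P/R cells, a derivative of it that the labels call persister-resistant to the drug OTX015. OTX015 (birabresib) blocks the bromodomains of the BET proteins, which bind acetylated histones. The table holds 19718 coding genes, and the 6 whose symbol is HIST1H1A, HIST1H1B, HIST1H1C, HIST1H1D, HIST1H1E or H1FX are described here. Both lines, called parental and P/R below, were sampled without drug and after 8 hours in 1000 nM OTX015, with 2 libraries in each of the 4 groups. The P/R cells are 1 derived line, so a difference between the lines rests on that derivative alone, and the labels give no genotype.

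H1 binds the nucleosome where DNA enters and leaves it and helps to fold the chromatin fibre. The HIST1H1 genes lie in the large histone cluster on chromosome 6 and are the replication-dependent kind: they are made mainly in S phase, and their main transcripts end in a stem-loop instead of a poly(A) tail. H1FX on chromosome 3 (protein H1X) is a replacement gene, with polyadenylated transcripts that are made outside S phase as well. Whether the library kit kept tailless RNA is not stated in the labels, so the levels of the replication-dependent genes cannot be read as their full amount.

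In GENCODE 29 each of the 6 genes is a single exon. No window of 50 bases in their transcripts is shared with a transcript of another gene. The exon of H1FX overlaps exons of H1FX-AS1 on the opposite strand, and whether the counting kept strand is not given, so reads of these 2 genes cannot be told apart. The promoters below show which boxes some of the cluster genes hold and H1FX does not. HIST1H1C, HIST1H1D and HIST1H1E are set side by side because their levels parted in P/R cells. Sequences are from RefSeq (GRCh38.p14) and run from 140 bases before the transcript start up to it. They lie at chr6:26056471-26056610, minus strand (HIST1H1C), chr6:26234988-26235127, minus strand (HIST1H1D), chr6:26156189-26156328, plus strand (HIST1H1E) and chr3:129316287-129316426, minus strand (H1FX). Capitals mark the H1 box AAACACA, the CCAAT box CCAAT and the TATA box TATAA.
HIST1H1C: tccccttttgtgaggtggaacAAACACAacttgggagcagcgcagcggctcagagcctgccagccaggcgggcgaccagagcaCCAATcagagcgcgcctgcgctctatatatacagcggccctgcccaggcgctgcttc
HIST1H1D: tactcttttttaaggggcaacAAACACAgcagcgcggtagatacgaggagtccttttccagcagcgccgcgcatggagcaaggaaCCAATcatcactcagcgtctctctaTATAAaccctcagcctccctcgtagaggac
HIST1H1E: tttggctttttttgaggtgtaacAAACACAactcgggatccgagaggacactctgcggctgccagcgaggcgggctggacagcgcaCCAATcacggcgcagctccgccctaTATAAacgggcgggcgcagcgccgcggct
H1FX: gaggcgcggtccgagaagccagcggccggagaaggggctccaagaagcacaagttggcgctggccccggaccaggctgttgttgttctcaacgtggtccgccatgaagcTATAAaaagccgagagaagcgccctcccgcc

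These motifs were searched on both strands in the 250 bases before the start, and all 6 genes have an entry. In HIST1H1C and HIST1H1D the forward H1 box spans bases -119 to -113 and in HIST1H1E bases -117 to -111, counted back from the start. HIST1H1B holds forward H1 boxes at bases -226 to -220 and -117 to -111. The only H1 box of HIST1H1A lies on the reverse strand, at bases -183 to -177. The CCAAT box begins at base -57 in HIST1H1C, -55 in HIST1H1D and -54 in HIST1H1E. H1FX holds neither of these, and its only match is a TATA box at bases -31 to -27. The letters TATAA occur in the windows of HIST1H1D, HIST1H1E and H1FX and not in that of HIST1H1C. The printed HIST1H1C sequence holds the letters tatatata at a like distance before the start, which a search for TATAA does not find. HIST1H1C is therefore not shown to lack a TATA box. Among all 35116 windows of this length, 4.82% hold the H1 box, 32% the CCAAT box and 18.9% the TATA box on either strand. Such matches describe the letters and are not binding sites.

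Levels are quantile-normalized FPKM, a measure of fragments divided by transcript length and by library size. Since it is not stated whether tailless RNA was kept, H1FX and the HIST1H1 genes are compared only as measured, not in full amount. H1FX and HIST1H1C were abundant, with group means from 28.4 to 539 FPKM, whereas the other HIST1H1 genes reached at most 10.3 FPKM. H1FX read 108 and 127 FPKM in untreated parental cells and 356 and 394 FPKM under OTX015, against 181 and 176 FPKM in untreated P/R cells and 558 and 521 FPKM under the drug. The 4 groups did not overlap, and P/R cells under OTX015 were highest.

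HIST1H1C (protein H1.2) read 29.3 and 27.5 FPKM in untreated parental cells and 99 and 105 FPKM under OTX015, against 154 and 155 FPKM in untreated P/R cells and 512 and 515 FPKM under the drug. Untreated P/R cells thus held more of it than treated parental cells, which was not so for H1FX. HIST1H1B (protein H1.5) read 1.15 and 1.81 FPKM in untreated parental cells and 8.41 and 10.3 FPKM under OTX015, against 1.26 and 1.16 FPKM in untreated P/R cells and 4.72 and 7.14 FPKM under the drug. HIST1H1E (protein H1.4) read 0.959 and 1.12 FPKM in untreated parental cells and 6.16 and 6.09 FPKM under OTX015, against 0.978 and 1.68 FPKM in untreated P/R cells and 7.14 and 8.26 FPKM under the drug. For both genes the treated libraries lay above all untreated ones, while the untreated libraries of the 2 lines overlapped.

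HIST1H1D (protein H1.3) was low, at 0.259 and 0.241 FPKM in untreated parental cells and 2.69 and 1.91 FPKM under OTX015, against 0.155 and 0.125 FPKM in untreated P/R cells and 1.26 and 1.62 FPKM under the drug. Only its treated libraries reached 1 FPKM, so it entered the tests only through the groups where it was high. HIST1H1A (protein H1.1) was listed at 0 in 5 of 8 libraries and reached at most 0.0784 FPKM; it was not tested and no fold is given. The germ-line H1 genes in the table, HIST1H1T, H1FNT and H1FOO, reached at most 0.394, 0.0851 and 0 FPKM.

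**Figure D1:**
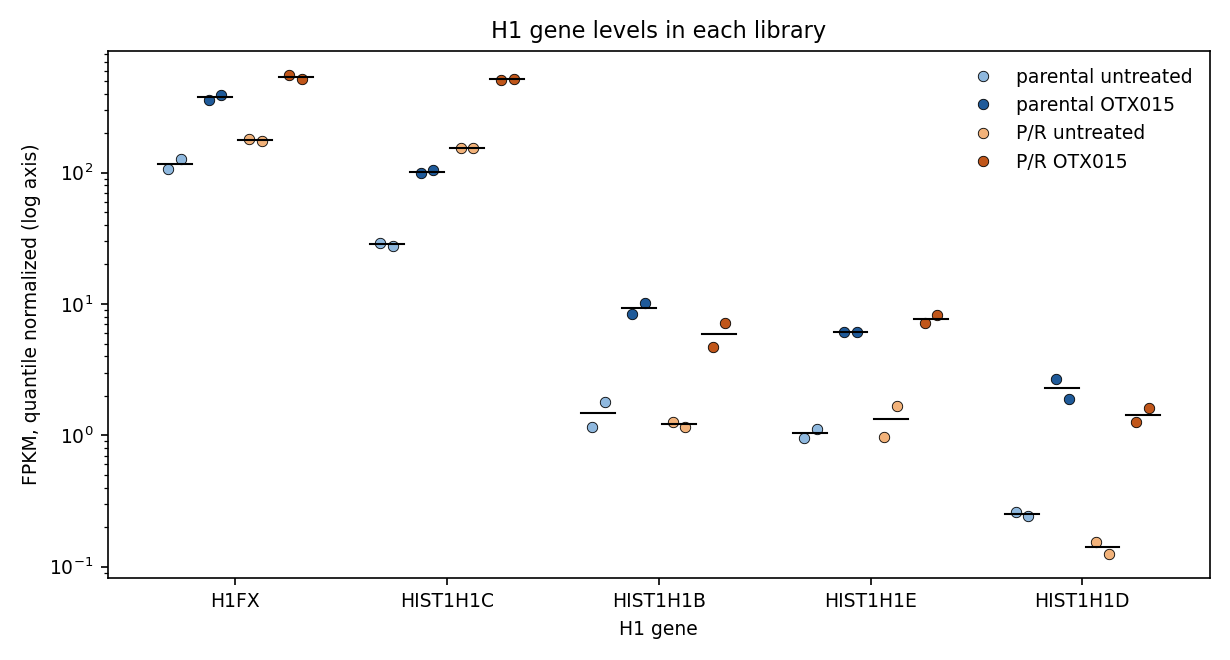
Quantile-normalized FPKM on a log axis for the 5 H1 genes that were tested, with 1 point per library (2 in each of 4 groups) and a bar at each group mean; HIST1H1A, listed at 0 in 5 libraries, is left out. H1FX and HIST1H1C sit above the other members in every group, and the treated libraries of each gene sit above the untreated ones of the same line.

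The first comparison asks what OTX015 did to H1 transcripts in parental cells. H1FX rose 3.19-fold and HIST1H1C 3.58-fold by ratio of mean FPKM, and HIST1H1B and HIST1H1E rose 6.32- and 5.89-fold from much lower levels. These 4 genes pass the filter on the untreated libraries alone. HIST1H1D, which does not, stood 9.2-fold higher and is given as a description only. In bulk RNA, more cells making a transcript and more of it per cell cannot be told apart. Of the 11255 genes tested, 25.7% passed as higher, and 1.65% passed as higher with a log2 change of at least 1, which these 4 also reached. On the scale of log2(FPKM + 1) used for the tests, HIST1H1C changed by 1.81 ± 0.05 (SE; adjusted p = 6.37e-08). H1FX changed by 1.67 ± 0.08 (adjusted p = 8.16e-07). HIST1H1B changed by 2.07 ± 0.18 (adjusted p = 2.62e-05) and HIST1H1E by 1.81 ± 0.15 (adjusted p = 1.57e-05). The value for HIST1H1D was 1.39 ± 0.14. Ranked by size of rise among all tested genes, HIST1H1B stood at place 19, HIST1H1E at 24, HIST1H1C at 25 and H1FX at 34.

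The order of the members by log2 change depends on the value added before the logarithm, because the replication-dependent genes other than HIST1H1C are low. With 0.1 in place of 1 the changes of HIST1H1B, HIST1H1E and HIST1H1D were 2.61, 2.45 and 2.76, and with 5 they were 1.14, 0.88 and 0.47. In P/R cells they were 2.17, 2.49 and 2.67 with 0.1 and 0.81, 1.01 and 0.32 with 5. So HIST1H1E in parental and HIST1H1B in P/R cells reach a log2 change of 1 only with the smaller values added, while the 4 genes passed the threshold on p with each. With 2 libraries against 2, an exact two-sided permutation test cannot go below p = 0.333, so these p-values rest on the limma model, which shares the spread among genes and groups.

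In P/R cells the same 4 genes rose, against 22.5% of all tested genes that passed as higher and 1.04% that also reached a log2 change of at least 1. The ratios of mean FPKM were 3.02 for H1FX and 3.33 for HIST1H1C, and 4.89 and 5.79 for HIST1H1B and HIST1H1E; HIST1H1D stood 10.3-fold higher. The log2 change was 1.59 ± 0.08 for H1FX (adjusted p = 1.79e-06) and 1.73 ± 0.05 for HIST1H1C (adjusted p = 6.49e-08). It was 1.62 ± 0.18 for HIST1H1B (adjusted p = 0.000142) and 1.91 ± 0.15 for HIST1H1E (adjusted p = 1.72e-05). The value for HIST1H1D was 1.09 ± 0.14, and 0.98 without P/R OTX015 replicate 2.

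Whether the lines differed in their response was tested directly, and no member passed. Over all genes 9 of 11255, or 0.08%, passed in either direction, and 1080 had an unadjusted p under 0.05. Among the 5 H1 genes 0 had one. For HIST1H1C the difference was -0.08 (interval -0.23 to 0.08, adjusted p = 0.772) and for H1FX -0.08 (interval -0.33 to 0.17, adjusted p = 0.874). For HIST1H1B it was -0.44 (interval -1.03 to 0.15), for HIST1H1D -0.30 (interval -0.75 to 0.16) and for HIST1H1E 0.11 (interval -0.36 to 0.58), with adjusted p of 0.639, 0.696 and 0.92. The wide intervals of the 3 low genes leave room for sizeable differences that 2 libraries per group could not resolve.

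**Figure D2:**
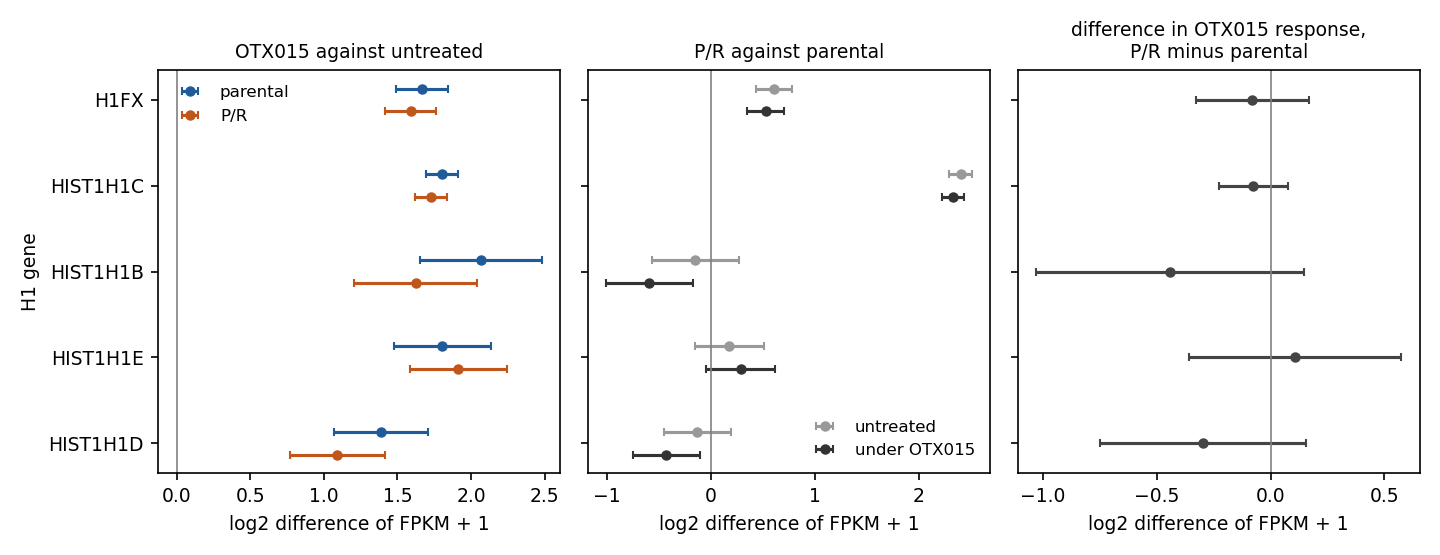
Differences of log2(FPKM + 1) from the limma fit for the 5 tested H1 genes, with 95% intervals not adjusted for the number of genes; left, OTX015 against untreated in each line; middle, P/R against parental cells without and with drug; right, the response in P/R minus that in parental cells. All responses to OTX015 lie above 0. HIST1H1D is shown as a description only, since it entered the tests through its treated libraries. In the middle panel HIST1H1C stands at 2.4 and 2.33, far to the right of the other members.

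The lines were then compared without drug. HIST1H1C was 5.43-fold higher in P/R cells and H1FX 1.52-fold, while HIST1H1B, HIST1H1D and HIST1H1E did not pass. The 2 genes that were higher are to be read against 11.7% of all tested genes that passed as higher. HIST1H1C differed by 2.40 ± 0.05 on the log2 scale (adjusted p = 1.58e-08), the 7th largest increase of 11255 genes. It was the only member past a log2 difference of 1, which 0.995% of all tested genes passed as higher. H1FX differed by 0.60 ± 0.08 (adjusted p = 0.000537). The intervals of the members that did not pass ran from -0.57 to 0.27 for HIST1H1B, from -0.45 to 0.19 for HIST1H1D and from -0.15 to 0.51 for HIST1H1E (adjusted p = 0.609, 0.552 and 0.435).

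Under OTX015 the same 2 genes were higher in P/R cells, and 12.7% of all tested genes passed as higher. HIST1H1C was 5.05-fold higher (log2 difference 2.33 ± 0.05, adjusted p = 2.13e-08), again 7th of all genes and the only member past a log2 difference of 1, as 1.14% of genes were. H1FX was 1.44-fold higher (0.52 ± 0.08, adjusted p = 0.00112). HIST1H1B was lower in P/R cells, at 0.635 of the parental level (-0.59 ± 0.18, adjusted p = 0.0445), where 11.7% of genes passed as lower. That call was lost without either treated parental library (adjusted p = 0.0682 and 0.213), without either untreated P/R library (0.0579 and 0.058) and without P/R OTX015 replicate 1 (0.264). HIST1H1D, at 0.625 of the parental level, did not pass (adjusted p = 0.0554) but did without parental OTX015 replicate 2 (0.0303). HIST1H1E did not pass (adjusted p = 0.198). This comparison shares its treated libraries with the responses above and is no independent look at them.

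The 6 genes were next summed within each library, as a description without a test. The sum was 139 and 158 FPKM in untreated parental cells, 472 and 517 FPKM in treated parental cells, 337 and 334 FPKM in untreated P/R cells, and 1083 and 1053 FPKM in treated P/R cells. It was 3.33-fold higher under OTX015 in parental cells and 3.18-fold higher in P/R cells, and 2.26-fold higher in P/R than in parental cells without drug. Quantile normalization fixes the total of each library at 678133 FPKM, so the sum describes a share of the messenger RNA measured and not an amount per cell. That share was 0.0219% in untreated parental cells and 0.158% in treated P/R cells.

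The make-up of the sum differed between the lines more than between treatments. The replacement gene H1FX made up 78.9% ± 2.33 (mean ± SD, n = 2) of it in untreated parental cells and 75.8% ± 0.585 in treated ones, but 53.2% ± 0.717 in untreated and 50.5% ± 1.43 in treated P/R cells. The replication-dependent genes took up the rest, and most of that was HIST1H1C, with 19.2%, 20.6%, 46% and 48.1% of the sum in these 4 groups. These shares hold for the RNA measured, since it is not stated whether tailless RNA was kept. For each FPKM of H1FX there were 0.272 and 0.216 FPKM of HIST1H1C in untreated parental cells, 0.278 and 0.265 in treated parental cells, 0.849 and 0.881 in untreated P/R cells, and 0.919 and 0.989 in treated P/R cells. The ratio did not overlap between the lines. Between treatments it overlapped in the parental line, while in the P/R line both treated libraries lay above both untreated ones. The other replication-dependent genes together came to 2.77 ± 0.565 FPKM in untreated parental cells and 2.75 ± 0.395 FPKM in untreated P/R cells, a difference well within the spread of the replicates. Under OTX015 they came to 17.8 ± 0.744 and 15.1 ± 2.76 FPKM.

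**Figure D3:**
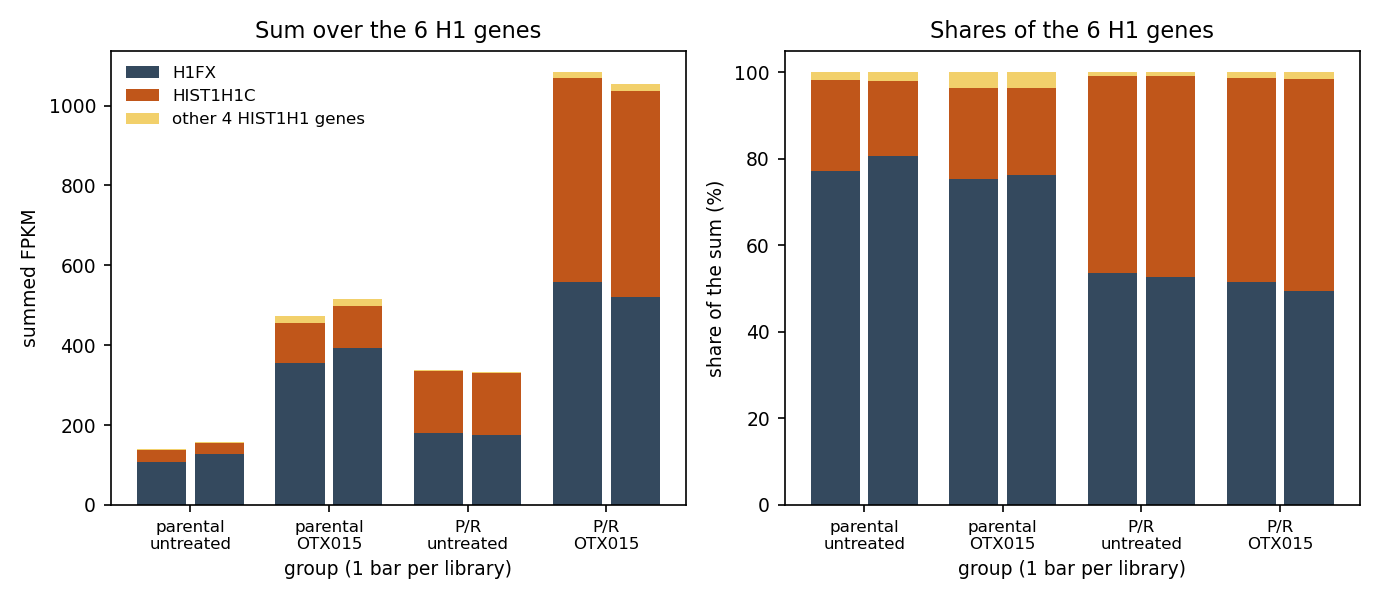
Left, FPKM summed over the 6 H1 genes with 1 bar per library, from 139 in an untreated parental library to 1083 in a treated P/R library; right, the share of that sum held by H1FX, HIST1H1C and the other 4 HIST1H1 genes. The share of HIST1H1C is 17.4% to 21% in the 4 parental libraries and 45.6% to 48.9% in the 4 P/R libraries.

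HIST1H1C was then placed among its neighbours in the histone cluster, a step chosen after its values were seen. Ordered by GENCODE 29, the region from HIST1H2AA to HIST1H2BO holds 75 coding genes of the table, of which 60 were tested. The nearest histone genes on either side, HIST1H3C and HIST1H4C, differed between untreated P/R and parental cells by -0.01 and -0.48 on the log2 scale, and neither passed (adjusted p = 0.961 and 0.0679). HIST1H2BC and HIST1H2AC, which follow HIST1H4C and HIST1H1T, were higher in P/R cells by 1.00 and 1.42 (adjusted p = 0.000501 and 1.46e-05). Of the 44 core histone genes tested in the cluster, 15 were higher in untreated P/R cells, 4 were lower and 25 did not pass. Of all tested genes 11.7% were higher and 11.9% lower. The core histones had a median log2 difference of 0.05 against -0.01 over all tested genes, a value that quantile normalization keeps small. The nearest histone gene on either side thus did not share the higher level of HIST1H1C. In the stretch from HIST1H2BC to HIST1H2BG, HIST1H2BD, HIST1H2BE, HIST1H2AD and HIST1H2BG were also higher. HIST1H4D, HIST1H3D, HIST1H2BF and HIST1H4E in that stretch did not pass. Other higher genes, such as HIST1H2BJ and HIST1H2BK, lay farther along the cluster. Outside the cluster, 6 of the 12 tested HIST2 and HIST3 genes were also higher in untreated P/R cells, 0 were lower and 6 did not pass. The 12 include near-identical copies. The part of gene position was not tested.

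**Figure D4:**
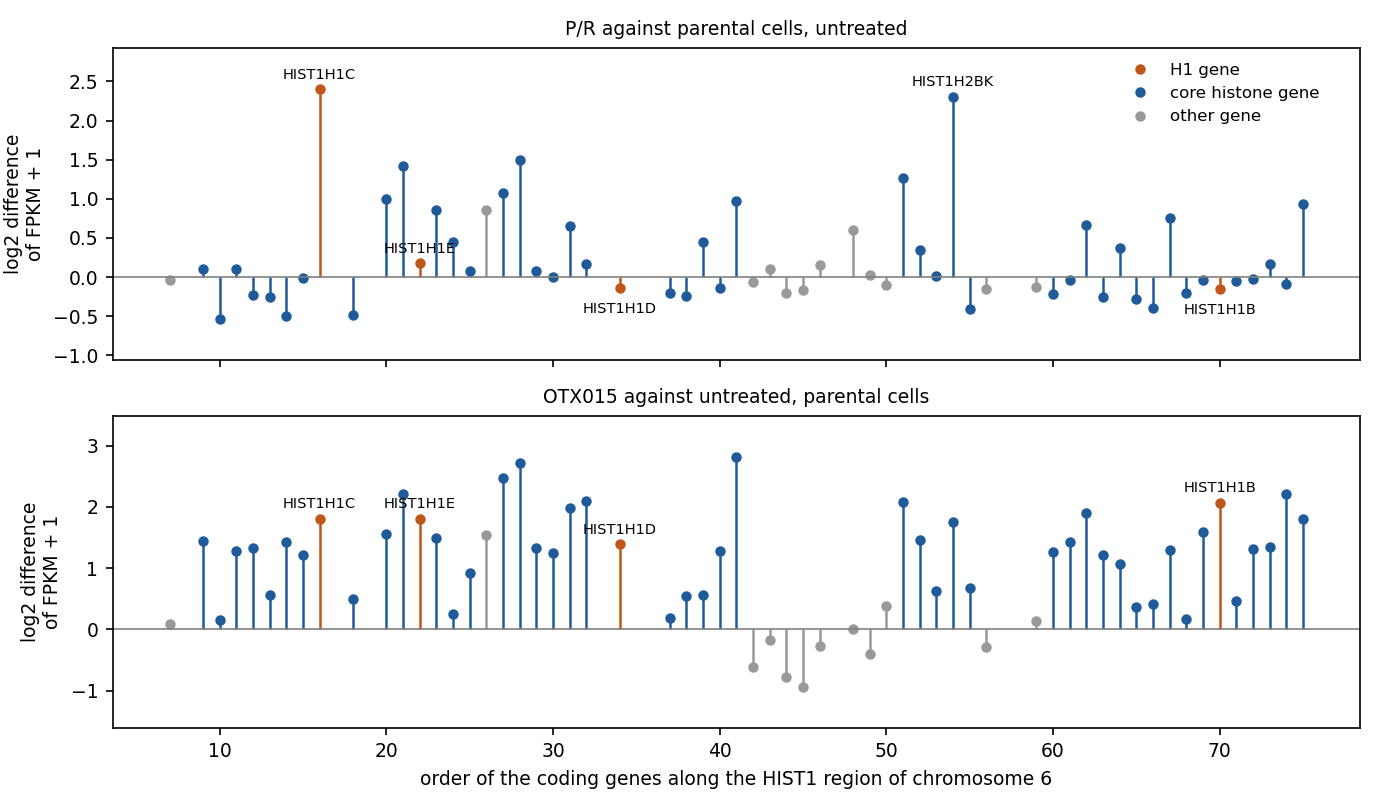
Differences of log2(FPKM + 1) for the tested coding genes of the HIST1 region, in their order along chromosome 6; top, P/R against parental cells without drug; bottom, OTX015 against untreated in parental cells. In the top panel HIST1H1C (2.4) and HIST1H2BK (2.3) stand above all other genes of the region, whereas in the bottom panel most histone genes lie above 0.

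The gene closest to HIST1H1C in its pattern was HIST1H2BK, which encodes a core histone of the H2B family and is separated from it by 37 coding genes of the table. Likeness was measured as the root mean square difference between log2(FPKM + 1) profiles over the 8 libraries, each centred on its own mean, and came to 0.10. HIST1H2BK read 64 and 67.8 FPKM in untreated parental cells and 208 and 243 FPKM under OTX015, against 328 and 330 FPKM in untreated P/R cells and 1003 FPKM in both treated P/R libraries. The identical pair comes from equal ranks under quantile normalization, which understates the spread. The next histone gene, HIST1H2BJ, was at 0.55, and the nearest genes outside the histone families, RP1-34B20.21, which lies within the same cluster, and CCDC144NL, were at 0.65.

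Outside the histone families H1FX was nearest to TAX1BP3, a PDZ domain gene, at 0.13, and to TP53I3, an oxidoreductase gene induced by p53, at 0.15. Among histone genes it was nearest to HIST1H2AG, at 0.14. TP53I3 read 3.76 and 4.02 FPKM in untreated parental cells, 12.4 and 11.7 FPKM under OTX015, 5.85 and 5.54 FPKM in untreated P/R cells and 16.4 and 17.5 FPKM in treated ones. HIST1H1B was nearest, outside the histone families, to the neuronal tubulin gene TUBB3 (0.21) and to HEXIM1 (0.22), which holds P-TEFb inactive. Of genes outside the histone families, HIST1H1E was nearest to TUBB3 and MARCKSL1 (both 0.26) and HIST1H1D to the ubiquitin ligase gene RNF19B (0.10) and the metallothionein gene MT1X (0.13). For low genes this likeness depends on the 1 added before the logarithm, and ratios of mean FPKM differed more. Under OTX015 HIST1H1D stood 9.2- and 10.3-fold higher in parental and P/R cells, but RNF19B 2.74- and 2.26-fold. HIST1H1B stood 6.32- and 4.89-fold higher, but HEXIM1 3.3- and 2.8-fold. H1FX stood 3.19- and 3.02-fold higher, but HIST1H2AG 5.62- and 5.9-fold. HIST1H1C lay farther from every other member (0.91 to 1.38) than these did from each other (0.26 to 0.51).

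The core histones that H1 is packed with gave a like picture under the drug. Of the 44 tested core histone genes of the HIST1 cluster (49 in the table), 39 rose and 0 fell in parental cells and 41 rose and 0 fell in P/R cells, with median log2 changes of 1.30 and 1.25; 5 and 3 did not pass. The medians over all tested genes were 0.02 and 0.01. Beside these counts stand 25.7% of all tested genes that rose and 24.7% that fell in parental cells, and 22.5% and 21.8% in P/R cells. Of these cluster genes, HIST1H4H (2.82) and HIST1H2AD (2.72) rose most in parental cells and HIST1H3H (2.75) and HIST1H2BJ (2.65) in P/R cells. All 12 tested HIST2 and HIST3 genes (15 in the table with HIST4H4) rose in both lines. HIST4H4 was at 0 in every library and was not tested. The rise was led by HIST2H4A (2.71 and 3.33), which has a near-identical copy. HIST2H3A and HIST2H3C read nearly alike in every library, as did HIST2H2AA3 and HIST2H2AA4, so the 12 are not all separate observations. Some of these genes entered the tests only through the treated libraries. Of HIST1 genes that pass the filter on the untreated libraries alone, 25 of 27 rose in parental and 27 of 27 in P/R cells. So did 7 of 7 HIST2 and HIST3 genes in both lines, near-identical copies among them. These counts were added after the data were seen.

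The replacement core histones had smaller median changes. Of 9 tested (10 in the table), 6 rose, 1 fell and 2 did not pass in either line. Of all tested genes, 25.7% rose and 24.7% fell in parental cells and 22.5% rose and 21.8% fell in P/R cells. The 9 had median log2 changes of 0.20 in parental and 0.18 in P/R cells. H2AFX, whose product marks DNA breaks when phosphorylated, rose in both lines, from 448 ± 21.8 to 901 ± 64 FPKM (mean ± SD, n = 2) in the parental line and from a start of 493 ± 16 to 840 ± 67.5 FPKM in the P/R line. H3F3B, one of the genes of histone H3.3, rose by 0.51 in parental cells and H2AFV by 0.50 in P/R cells. H2AFY, which encodes macroH2A1, fell by 0.24 and 0.27. In untreated P/R cells 0 of these 9 were higher and 2 were lower than in parental cells. Of all tested genes, 11.7% were higher and 11.9% lower. Of the 9, H2AFJ read 5.16 and 5.67 FPKM in untreated parental cells and 0 FPKM in every P/R library. H1FX was higher in untreated P/R cells, and the contrast between it and these genes was not tested.

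Genes that make and process histone transcripts had median changes near 0. Of 13, among them the cluster's transcriptional co-activator NPAT and the cleavage factors, 1 rose, 5 fell and 7 did not pass in parental cells, and 1 rose, 4 fell and 8 did not pass in P/R cells (median log2 change -0.09 and -0.01). The share that fell was above the 24.7% of all genes in parental cells and the share that rose below the 25.7%, a description of few genes. In P/R cells 21.8% of all tested genes fell and 22.5% rose. The gene that rose was SLBP, which binds the stem-loop, which went from 118 ± 0.951 to 155 ± 2.91 FPKM in the parental line; in the P/R line it stood at 108 ± 0.751 without and 140.02 ± 2.57 FPKM with the drug. CSTF2 and CPSF2 of the cleavage machinery fell by 0.27 and 0.27 in parental cells and by 0.36 and 0.47 in P/R cells. Among 7 genes of histone mRNA decay, UPF1 rose by 0.30 and 0.25, LSM1 fell by 0.26 and 0.20, EXOSC10 fell by 0.13 and 0.19 and the other 4 did not pass. These few genes are to be read beside the same shares of all tested genes.

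Of 19 genes of S phase, 8 rose, 4 fell and 7 missed the threshold in parental cells. Beside them stand 25.7% of all genes that rose and 24.7% that fell. In P/R cells 8 rose, 2 fell and 9 missed it, beside 22.5% and 21.8% of all genes. The median log2 changes were 0.10 and 0.08. RRM2, a subunit of ribonucleotide reductase, rose by 0.89 and 0.90 and TK1, thymidine kinase, by 0.63 and 0.69. MCM2 of the replicative helicase fell by 0.27 and 0.23, MCM5 by 0.20 in parental cells and MCM7 by 0.13 in P/R cells. In untreated P/R cells 0 of the 19 were higher and 6 were lower than in parental cells, beside 11.7% and 11.9% of all genes, while HIST1H1C was higher. The part of S phase genes in the H1 values was not tested.

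Genes for proteins that handle H1 or compete with it were called in both directions, as were all genes (25.7% higher and 24.7% lower in parental cells, 22.5% and 21.8% in P/R cells). Of 19 tested genes for H1 chaperones, import factors and competitors (20 in the table), 7 rose, 5 fell and 7 did not pass in parental cells, and 5 rose, 7 fell and 7 did not pass in P/R cells. CBX5, which encodes the heterochromatin protein HP1α, rose by 0.70 and 0.74. HMGN2, a nucleosome-binding protein that competes with H1, rose from 994 ± 13.3 to 1241 ± 35.8 FPKM in parental cells, and the chaperone gene NAP1L4 rose by 0.20 in P/R cells. The acidic chaperone genes ANP32A and ANP32B fell by 0.44 and 0.40 in parental cells and by 0.44 and 0.41 in P/R cells. Of 9 genes for enzymes and readers of H1 modifications, 3 rose, 1 fell and 5 did not pass in each line. The deacetylase SIRT1 rose by 0.54 and 0.33, the kinase CDK2 by 0.49 and 0.25, and the acetyltransferase KAT2A fell by 0.64 and 0.53.

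The libraries fitted their labels as far as could be checked. Replicates correlated across genes at 0.996 to 0.997, while pairs from 2 groups gave 0.959 to 0.985 (a description, since genes are no replicates). All 8 erythroid and megakaryocyte markers were expressed, with GATA1 at 327 to 386 FPKM and HBG2 at 8044 to 9651 FPKM. Of 11 markers of other cell types, 9 stayed at or below 0.764 FPKM, with CD3D, MS4A1, ELANE and COL1A2 at 0 in every library. The other 2, KRT18 and PECAM1, were higher in untreated P/R cells, with KRT18 at 16.3 and 13.7 FPKM in parental and 75.6 and 74.4 FPKM in P/R cells. PECAM1 read 10.6 and 10.1 FPKM in parental and 13.4 and 13.5 FPKM in P/R cells. Their part in the line difference of HIST1H1C was not tested.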

How the data were processed

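RNA of 8 libraries was measured by RNA sequencing. The values, as deposited by the authors, were taken to be FPKM, from the values and the tools; the header names no unit. TopHat2 2.0, Cufflinks 2.0 and hg19 are named per the submitters' processing notes; for their roles, the annotation, poly(A) selection and strand, nothing is given in the sources used here. Sorted values of any pair of libraries differ by at most 0.136% at 1 FPKM or more, so the deposited table is quantile normalized; depth cannot be recovered, and no counting error is given. Genes with at least 1 FPKM in at least 2 libraries were tested (11255 of 19718; 5 of the 6 H1 genes described). Values were turned into log2(FPKM + 1), and 4 group means were fitted with limma 3.58.1 (R 4.3.3, variance trend, 4 residual and 5.23 prior degrees of freedom). P-values are two-sided and adjusted by Benjamini-Hochberg over all tested genes, with a threshold of 0.05; the fit was tested on simulated data. Libraries are called biologic, independently treated replicates in the labels. Members, gene lists and naming rule (all members, the 2 largest called rises and falls of each list under OTX015, the 2 nearest profiles outside and inside the histone families) were chosen with earlier results of these data known. 1 further gene was part of the fit and is not reported here.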

Additional observations from a re-analysis of the deposited data

How the results depend on the processing

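The alternatives were values of 0.1 and 5 added before the logarithm, leaving out the filter or setting it at a mean of at least 5 FPKM, a fit without the variance trend, centring on library medians, only the groups compared (not possible for the difference in response), a replicate block, a log2 change of at least 1 and each library left out. Of 410 values of H1 genes under an alternative, 389 kept direction and call, 12 lost a call, 4 gained one and 5 changed sign. Many of these settings could not move the log2 change itself. Changing the filter or trend, adding the block, fitting only the groups compared and raising the threshold keep it and can alter only the call. Leaving out a library outside a comparison also keeps its log2 change, and centring hardly alters a quantile-normalized table. The 410 include HIST1H1D, so the 389 are a count and not a measure of how firm the results are. With a mean of at least 5 FPKM only 2 H1 genes were tested and both rose (2 in place of 5) under OTX015 in each line. HIST1H1D is among those 5, and 4 pass the filter on the untreated libraries alone. With a log2 change of at least 1, 1 gene was called in each line comparison. The 5 that changed sign passed neither way: the difference in response of HIST1H1C was 0.0275 with 5 added, and without single libraries that of H1FX ran from -0.20 to 0.0398, that of HIST1H1E from -0.11 to 0.33, and the untreated line differences of HIST1H1B and HIST1H1E from -0.34 to 0.0417 and from -0.0431 to 0.40. The lower HIST1H1B in treated P/R cells was also lost with 0.1 added (adjusted p = 0.0773), without a filter (0.136) and without the trend (0.0672), where HIST1H1D passed (0.0442), as it did with 5 added (0.0415); the cause was not tested.

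Same-numbered libraries did not deviate together (correlations of -0.12 to 0.10), so the numbers do not pair them. With the replicate block 5, 5, 2, 3 and 0 H1 genes, HIST1H1D among the first 2 counts, were called in the 5 comparisons, as without it. A crossed block for the treated groups, added after the data were seen, also gave 3, with HIST1H1D (adjusted p = 0.0471) in place of HIST1H1B (0.0589). Over all genes, 9 differed in response, 2 with the block, 4 with 0.1 added, 29 with 5, 4 unfiltered, 3 without the trend and 0 to 8 without single libraries. Leaving out parental untreated replicate 1 or P/R untreated replicate 1 or 2 left 1756, 1594 and 1661 genes between untreated lines in place of 2647, and leaving out parental OTX015 replicate 1 left 1758 in place of 2747 between treated lines.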
